A study of Danio rerio with 6 samples.

Results

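The exons described here are the skipped exons of 61 to 120 bp that the authors called differentially spliced between *sart3* mutant and wild-type zebrafish. They are 518 of the 1327 deposited skipped exon events (39.0%), chosen by exon length alone from a table that held only events past the authors' rMATS test. They concern 507 distinct exons in 468 genes, since 22 events share an exon with another event. RNA was taken from whole embryos at 4 days post fertilization (dpf), in 3 libraries of *sart3* mutants and 3 of WT siblings. Both groups came from an intercross of *sart3*+/- fish and were told apart by high-resolution melting genotyping. The mutants carry smu471, an allele from a chemical mutagenesis screen in which a T to A substitution in *sart3* makes a stop codon, and the siblings were genotyped as WT. The sources used here do not say how many embryos went into a library or whether libraries came from separate clutches, so errors and p-values measure the spread between these libraries only.

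An exon is skipped when the splicing machinery joins the exon before it directly to the exon after it. The spliceosome is built on each intron from small nuclear ribonucleoproteins (snRNPs), of which U4 and U6 must be paired again after every round of splicing. SART3, like its yeast relative Prp24, helps to bring U4 and U6 back together. A cassette exon is one that some transcripts of a gene keep and others leave out, and many are used in one tissue more than in another. If a skipped coding exon is not a multiple of 3 bases long, the codons after it are read in another frame. The roles given below for single genes are mainly those known of the mammalian genes.

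Inclusion is the share of transcripts that keep the exon, here computed in each library from the reads that include and the reads that skip it, each divided by the effective length of its form. Mean inclusion was lower in mutants than in siblings in 404 of the 518 events and higher in 114. Over the 1324 deposited skipped exon events whose reads could be recovered, called events with reads below, 74.8% were lower and 25.2% were higher. The members were chosen from events that had passed a test of this same contrast, so these counts describe the table and no test was run on them. Median inclusion was 0.780 in siblings and 0.563 in mutants, the median difference was -0.176 and its median size was 0.215. Over all deposited events with reads the median difference was -0.166.

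Medians were also taken library by library. Over the 432 events with reads in every library, median inclusion was 0.776, 0.804 and 0.794 in the 3 sibling values of the table and 0.580, 0.572 and 0.555 in the 3 mutant values. Every mutant median thus lay below every sibling median. The events had been selected on these same libraries, so this order describes the selected events and is no separate support. Which of the 3 values of a group belongs to which library is not told by the splicing table, so they are called values 1 to 3 in table order. In 242 of the 432 events (56.0%) the sibling and mutant values did not overlap, against 53.2% of all deposited skipped exon events with 6 values. Because the RNA came from whole animals, a change of splicing within cells and a change in the share of cells that use an exon cannot be told apart.

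**Figure D1:**
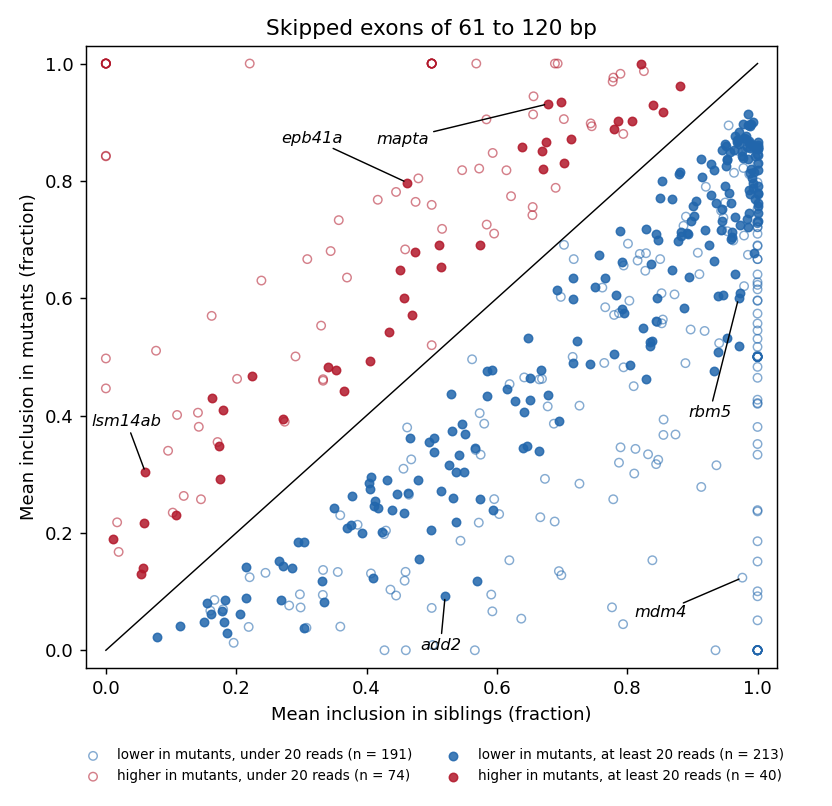
Mean inclusion of each of the 518 events in siblings (horizontal axis) and in mutants (vertical axis), as fractions. Filled points have at least 20 reads in every library and open points have fewer, blue marks events lower in mutants and red those higher, and the line is equality. The extreme differences are open points, and the right edge holds the many exons that siblings nearly always kept.

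The depth of the events set how firmly each could be read. For each event the library with the fewest reads for that event was taken, and the median of these values was 19 reads. In 86 events at least 1 library had no read. At least 20 reads in every library were present in 253 events, 213 lower and 40 higher in mutants. The values of 174 of the 253 did not overlap (68.8%). Over all deposited events with 6 values, at any depth, this share was 53.2%, and their share at 20 reads was not computed. In these 253 the median difference was -0.145. Their differences ran from -0.459 to 0.335, while those of all 518 ran from -1 to 1, where the extremes rest on a few reads. Among the better covered events, 25 differed by at least 0.3, of which 24 were lower in mutants and 1, in *epb41a*, was higher. At the other end, 37 of them differed by less than 0.1.

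The length limits cut through a continuous range of exons. Just inside the lower limit, all 6 events of 61 bp, on 5 exons, were lower in mutants, and the best covered was that of *rbm5*, with a mean inclusion of 0.971 in siblings and 0.6 in mutants. Just outside it, 10 of the 14 events of 60 bp were lower, led in reads by *elavl1a* with 0.475 and 0.317. At the upper limit, 4 of the 8 events of 120 bp, on 6 exons, were lower, and *braf* had 0.480 in siblings and 0.156 in mutants. Of the 4 events that were longer by 1 bp, 2 were lower, and *srsf11* had 0.446 and 0.239.

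The largest difference among the named exons was that of *mdm4*, whose protein restrains p53. The exon is 65 bp long, at 22909535 to 22909599 on the minus strand of chromosome 11 (GRCz11), after an intron of 441 bp and before one of 3141 bp. Its inclusion was 0.980, 0.95 and 1 in siblings against 0.170, 0.0417 and 0.16 in mutants, a difference of -0.853. The groups lay far apart, although the mutant libraries held only 17 to 28 reads on this event. The length of the exon is not a multiple of 3. The list of p53 regulators, cell cycle and DNA repair genes held 8 events, with a median difference of -0.197. Of the 8, 7 were lower in mutants (87.5%, against 74.8% of all events) and 1 higher. In *cdc14b*, a phosphatase of the cell cycle, the 66-bp exon was kept at 0.541, 0.389 and 0.342 in siblings and at 0.241, 0.249 and 0.116 in mutants, with no overlap. The 69-bp exon of *ptenb*, which encodes a lipid phosphatase that opposes PI3-kinase, differed by only -0.0746, from 0.789 ± 0.036 (SD, n = 3) to 0.715 ± 0.040 (SD, n = 3). Its groups were barely apart, with a lowest sibling value of 0.768 and a highest mutant value of 0.760. The only member of this list with higher mean inclusion was the exon of *rrm2*, a subunit of ribonucleotide reductase, and a library without reads makes that value unreliable.

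Splicing and RNA-binding proteins held 25 events in 22 genes, with a median difference of -0.113. Mean inclusion in mutants was lower in 18 of them (72%, against 74.8% of all events) and higher in 7. The values of 17 of the 23 events with all 6 values did not overlap (73.9%, against 53.2% of all events and 68.8% of the members with 20 reads in every library). These genes were well covered, with a median of 66 reads in each event's library with the fewest. *rbm5*, a regulator of splice site pairing in apoptosis genes, had the best covered exon of 61 bp (chromosome 6, 53274909 to 53274969, minus strand). Its inclusion was 0.961, 0.968 and 0.983 in siblings and 0.539, 0.671 and 0.589 in mutants, from 128 to 338 reads a library. The 85-bp exon of *raly*, an RNA-binding protein of the hnRNP family, was kept at 1, 1 and 0.858 in siblings and at 0.649, 0.375 and 0.575 in mutants. In both genes every mutant value was below every sibling value.

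Other exons of this group were higher in mutants. The 93-bp exon of *lsm14ab*, which encodes a protein of mRNA processing bodies, was nearly always skipped in siblings, with inclusion of 0.0364, 0.0845 and 0.0611. In mutants it was kept at 0.386, 0.285 and 0.238, so the groups did not overlap. *puf60a*, a splicing factor that works with U2AF, had 2 members. Its 63-bp exon had inclusion of 0.629, 0.705 and 0.678 in siblings and 0.716, 0.857 and 0.885 in mutants, whereas its 110-bp exon went from 0.266 ± 0.025 to 0.153 ± 0.042 (SD, n = 3). Both pairs of groups were free of overlap, in opposite directions within 1 gene. For the 63-bp exon they were barely apart, at 0.705 in the highest sibling value and 0.716 in the lowest mutant value.

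Further members of the group were picked after their values were seen. The kinase gene *clk2a*, whose product phosphorylates SR proteins, had 2 overlapping forms of 1 exon, of 91 bp and 94 bp, with mean inclusion lower by 0.317 and 0.297 in mutants. The 2 forms share most of their sequence and are not independent. In *rbm39a*, a U2AF-like factor, the 66-bp exon was kept at 0.970, 0.939 and 0.971 in siblings and at 0.717, 0.752 and 0.816 in mutants, with at least 580 reads in each library. *snrpa1*, which encodes the A' protein of the U2 snRNP, had a smaller difference with a narrow spread, from 0.968 ± 0.016 to 0.865 ± 0.0035 (SD, n = 3), for an exon of 80 bp. The 63-bp exon of *nova2*, a splicing regulator of neurons, went from 0.537 ± 0.096 to 0.218 ± 0.12 (SD, n = 3).

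Chromatin and transcription regulators held 26 events in 24 genes, with a median difference of -0.166, equal to that of all deposited events. Of the 26, 21 were lower (80.8%, against 74.8% of all events) and 5 higher. In 18 of 26 the groups did not overlap (69.2%, against 53.2% of all events and 68.8% of the members with 20 reads in every library), and 22 of the 26 had 20 reads in every library. The 75-bp exon of *kdm6bb*, a histone H3K27 demethylase, was kept at 1, 0.940 and 0.975 in siblings and at 0.561, 0.541 and 0.456 in mutants. It lies on the plus strand of chromosome 10 from 22744346 to 22744420. A 69-bp exon of *kat5b* (ENSDARG00000045951), a histone acetyltransferase gene of chromosome 5, was kept at 0.820, 1 and 1 in siblings and at 0.588, 0.556 and 0.382 in mutants. Neither exon showed overlap between the groups. The table gives the same symbol to ENSDARG00000004587, also on chromosome 5, where a 63-bp exon had a mean inclusion of 0.868 in siblings and 0.648 in mutants, with overlapping values.

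The *phf21aa* gene, which encodes a reader of unmethylated histone H3, had exons moving both ways. Its 84-bp exon had inclusion of 0.215, 0.230 and 0.227 in siblings and 0.490, 0.490 and 0.424 in mutants. Its 66-bp exon had 0.510, 0.644 and 0.783 in siblings and 0.409, 0.431 and 0.203 in mutants. In neither did the groups overlap, at 20 reads or more in every library. *smarcd3b*, a subunit of BAF chromatin remodelers, had a 90-bp exon kept at 0.370, 0.222 and 0.225 in siblings and at 0.280, 0.430 and 0.474 in mutants, and here the groups overlapped. Its paralog *smarcd3a* also had a 90-bp exon among the members, with means of 0.434 and 0.542 and no overlap.

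Genes of the cytoskeleton, muscle and cell junctions held 31 events in 28 genes, with a median difference of -0.111. Of the 31, 19 were lower and 12 were higher (38.7%, against 25.2% of all events). *add2*, a subunit of adducin, which caps actin and joins it to spectrin under the cell membrane, had the largest fall of this group with 20 reads in every library. Its 72-bp exon (chromosome 5, 13789250 to 13789321, minus strand) was kept at 0.597, 0.412 and 0.553 in siblings and at 0.0962, 0.0940 and 0.0879 in mutants. All 3 mutant values lay close together and well under the lowest sibling value. The exon lies within 10 Mb of *sart3*, where alleles linked to the mutation travel with it. The part of linked sequence differences in this fall was not tested. In *utrn*, the relative of dystrophin, a 66-bp exon went from 0.960, 0.975 and 0.905 in siblings to 0.663, 0.483 and 0.670 in mutants. That exon is also listed among the mutually exclusive exons, as are those of *camk2d2* and *tmed8* described below.

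The largest better covered rise of all was in the same group. The 63-bp exon of *epb41a*, which encodes protein 4.1, a partner of spectrin and actin, was kept at 0.319, 0.584 and 0.484 in siblings and at 0.802, 0.857 and 0.733 in mutants. The difference of 0.335 was the only one of at least 0.3 in that direction among events with 20 reads in every library. *mapta*, one of 2 zebrafish genes for the microtubule protein tau, had a 93-bp exon at 4750236 to 4750328 of chromosome 12, minus strand. Its inclusion was 0.660, 0.701 and 0.675 in siblings and 0.963, 0.924 and 0.907 in mutants, from at least 166 reads a library. The other tau gene, *maptb*, also had a 93-bp exon with higher inclusion in mutants, from 0.0113 ± 0.011 to 0.190 ± 0.018 (SD, n = 3).

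**Figure D2:**
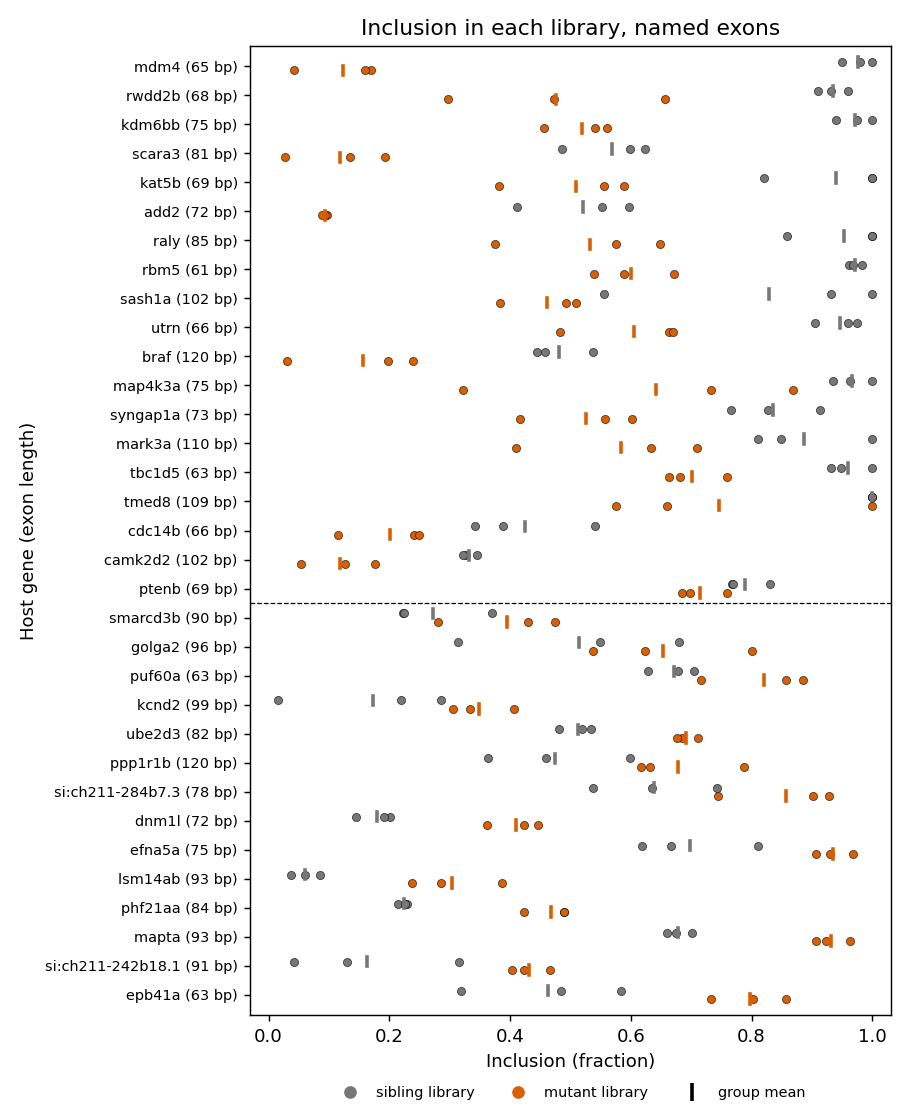
Inclusion (fraction) of the 33 named exons in each library, with siblings in grey, mutants in orange and short bars for the group means. Exons above the dashed line had lower and those below it higher mean inclusion in mutants. In 30 of the 33 the groups did not overlap, against 53.2% of all deposited skipped exon events with 6 values. The 8 largest falls and 8 largest rises were picked for no overlap, so the selection largely set this count.

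Synapse, axon and ion channel genes held the most events of any list, 42 in 38 genes, of which 25 were lower and 17 higher in mutants (40.5%, against 25.2% of all events). The median difference was -0.129. Their coverage was low, with a median of 9.5 reads in each event's library with the fewest. The groups were apart in 13 of 34 events with 6 values (38.2%, against 53.2%). *syngap1a* encodes a Ras inhibitor of the postsynaptic density. Its 73-bp exon was kept at 0.913, 0.826 and 0.765 in siblings and at 0.602, 0.417 and 0.557 in mutants. The 102-bp exon of *camk2d2*, a calcium and calmodulin dependent kinase, was kept at 0.328, 0.323 and 0.345 in siblings and at 0.126, 0.0539 and 0.176 in mutants. In both genes all mutant values were the lower ones.

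Exons of other neuronal genes were kept more often. The 75-bp exon of *efna5a*, a ligand in axon guidance, had inclusion of 0.619, 0.666 and 0.810 in siblings, against 0.968, 0.930 and 0.906 in mutants. The 99-bp exon of the potassium channel gene *kcnd2* was kept at 0.286, 0.0156 and 0.220 in siblings and at 0.334, 0.407 and 0.305 in mutants. The groups were barely apart in *kcnd2*, and without sibling value 2 its difference fell from 0.175 to 0.0957. Neurexins, presynaptic adhesion proteins, gave 4 members, picked here after their values were seen. The 90-bp exons of *nrxn2b* and *nrxn3b* had higher mean inclusion in mutants, by 0.109 and 0.127, with no overlap in *nrxn2b* only. The *nrxn1a* and *nrxn1b* events had a library with 7 and 3 reads and mutant values spread from 0.0302 to 1 and from 0 to 0.496, too wide for a direction.

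Kinase, phosphatase and GTPase signaling genes held 25 events in 24 genes, with a median difference of -0.162. Of the 25, 22 were lower (88.0%, against 74.8% of all events) and 3 higher. *braf*, a kinase of the MAP kinase cascade, was named for its exon length and is not counted in this list. Its 120-bp exon was kept at 0.538, 0.445 and 0.458 in siblings and at 0.239, 0.0304 and 0.198 in mutants. In *mark3a*, a kinase of microtubule-associated proteins, the 110-bp exon went from 0.810, 1 and 0.849 to 0.410, 0.709 and 0.633. The groups were apart in both. The 75-bp exon of *map4k3a* was kept at 1, 0.963 and 0.935 in siblings and at 0.322, 0.733 and 0.869 in mutants. Much of that difference came from mutant value 1, without which it shrank from -0.324 to -0.165. *ppp1r1b*, an inhibitor of protein phosphatase 1, had a 120-bp exon with higher inclusion, from 0.474 ± 0.12 to 0.678 ± 0.094 (SD, n = 3).

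Membrane trafficking and ubiquitin genes held 25 events in 24 genes, with a median difference of -0.156. Of the 25, 19 were lower (76.0%, against 74.8% of all events) and 6 higher. The best covered was *ube2d3*, a ubiquitin-conjugating enzyme, whose 82-bp exon is not a multiple of 3. Its inclusion was 0.534, 0.520 and 0.482 in siblings and 0.686, 0.676 and 0.711 in mutants, from 371 to 600 reads a library, with a wide gap between the groups. The 63-bp exon of *tbc1d5*, a Rab inhibitor of endosomes, went from 1, 0.947 and 0.931 to 0.663, 0.682 and 0.760. The 109-bp exon of *tmed8* was skipped by none of 200 sibling reads (up to 1.5% allowed), and was kept at 0.660, 1 and 0.576 in mutants, so that the groups met at 1. Without mutant value 2 its difference grew from -0.255 to -0.382. For *golga2*, a Golgi matrix protein, a difference of 0.14 came from overlapping groups. It was 0.0393 without sibling value 1, 0.0664 without mutant value 1 and 0.223 without sibling value 3.

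Outside the lists were 337 members, 274 lower (81.3%, against 74.8% of all events) and 63 higher, with a median difference of -0.184. The 68-bp exon of *rwdd2b* was kept at 0.932, 0.960 and 0.910 in siblings and at 0.473, 0.656 and 0.297 in mutants, the largest fall among members with at least 20 reads in every library. *scara3*, a gene of the scavenger receptor class, had an 81-bp exon kept at 0.486, 0.623 and 0.598 in siblings and at 0.0274, 0.193 and 0.135 in mutants. In *sash1a*, a signaling scaffold gene, the 102-bp exon was kept at 0.932, 1 and 0.556 in siblings and at 0.510, 0.383 and 0.492 in mutants. These 3 pairs of groups were apart, *sash1a* by the least. On the other side were *dnm1l*, the dynamin-like enzyme of mitochondrial fission, and 2 genes without a given name. The 72-bp exon of *dnm1l* went from 0.145, 0.202 and 0.191 in siblings to 0.446, 0.423 and 0.361 in mutants. The exon of si:ch211-242b18.1 (91 bp) had means of 0.162 and 0.431, and that of si:ch211-284b7.3 (78 bp) had 0.638 and 0.858. The groups of si:ch211-284b7.3 nearly touched, with a highest sibling value of 0.7428 and a lowest mutant value of 0.7435.

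Counting error adds to the spread between libraries. Over the libraries of the named exons, the 95% Wilson interval of the share of reads that include the exon was 0.0254 to 0.384 wide, with a median of 0.176. The reads carry no molecular identifiers, so these intervals cover counting error only.

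Several genes held more than 1 member. This was the case for 43 genes, and in 11 of them members moved in both directions, among them *phf21aa*, *puf60a*, *dbnlb*, *elavl1b* and *camk2g2*. The members of *phf21aa*, *puf60a*, *dbnlb* and *elavl1b* had at least 20 reads in every library. Others of the 11 rest on few reads, and *camk2g2* and *tbc1d1* had a library with 0. In *thrb* the 2 directions came from 2 events on 1 exon, with as few as 3 reads in a library. In *elavl1b*, which encodes a stabilizer of mRNAs, the 104-bp exon had a mean inclusion of 0.929 in siblings and 0.828 in mutants. Its 63-bp exon had 0.354 and 0.477, with overlapping groups. The 104-bp exon of the paralog *elavl1a* had means of 0.881 and 0.816. *ccnt2a*, which encodes a cyclin of the elongation factor P-TEFb, had 3 events on 2 exons that lie next to each other on chromosome 9, all lower in mutants. Its 63-bp exon was kept at 0.973 ± 0.027 in siblings and 0.609 ± 0.11 in mutants (SD, n = 3). Its 61-bp exon was kept at 0.914 ± 0.081 and 0.278 ± 0.084 (SD, n = 3) when scored with the more distant neighbor, and at 0.824 ± 0.16 and 0.549 ± 0.076 (SD, n = 3) when scored with the 63-bp exon. The 63-bp event and the 61-bp event scored with the more distant neighbor count the same skipping reads, so they are not independent. Paralogs can be close in sequence, and reads that fit both copies could have been placed on either.

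Direction and length were also counted by how often siblings kept the exon. All 185 events with a sibling inclusion of at least 0.9 were lower in mutants. No rise above 0.1 is possible from there, while 468 of the 518 selected events differed by at least 0.1. The selection and the ceiling of 1 thus largely set this direction. Of these, 81 (43.8%) had a length that is a multiple of 3. In the range from 0.5 to under 0.9 there were 197 events, 145 lower and 52 higher, with 147 multiples of 3 (74.6%). From 0.1 to under 0.5 there were 115, 73 lower and 42 higher, with 87 multiples of 3 (75.7%). Under 0.1 there were 21, 1 lower and 20 higher, with 17 multiples of 3. No fall of 0.1 is possible from there, so the selection and the floor at 0 largely set the direction of these. They were poorly covered, with an empty library in 13 and 20 reads in every library in 6.

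The exons nearly always kept in siblings included 55 with inclusion of 1 in all 3 sibling libraries. Of these 21 were multiples of 3, and 15 had at least 20 reads in every library. Those 15 were picked by their values and included *eno2*, a glycolytic enzyme of neurons, with a 70-bp exon kept at 0.826, 0.750 and 0.761 in mutants. They also included *nusap1*, a protein of the mitotic spindle, with a 78-bp exon kept at 0.792, 0.732 and 0.848, and *cacng3b*, an auxiliary subunit of glutamate receptors, with an 84-bp exon kept at 0.892, 0.904 and 0.777. No sibling read skipped any of these exons. With 3 reads as the limit that a count of 0 allows, the skipping share of reads could still have been up to 0.686% in siblings for *eno2*, 1.16% for *nusap1* and 0.748% for *cacng3b*, over the 3 libraries together.

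**Figure D3:**
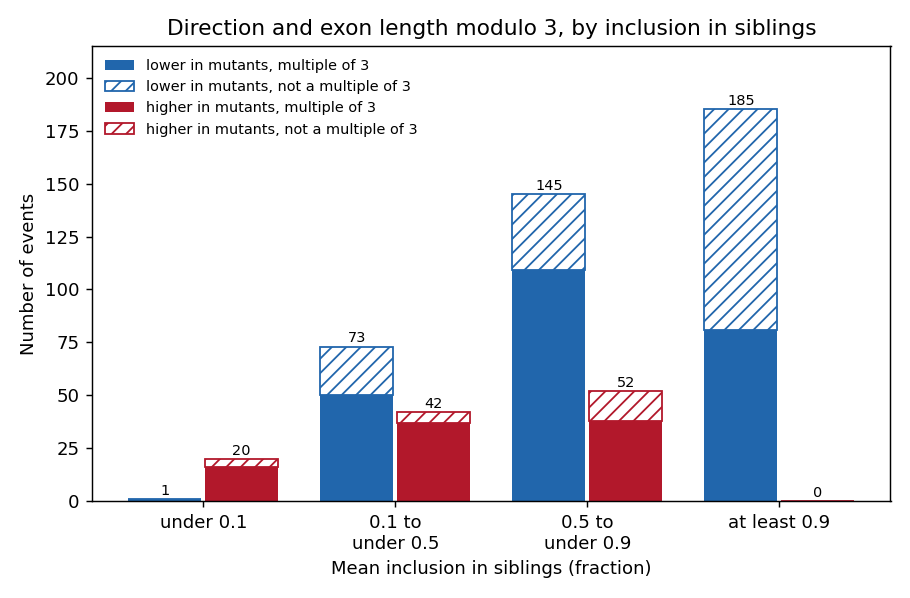
Number of events (vertical axis) by mean inclusion in siblings (horizontal axis, fraction). Blue bars are events lower and red bars events higher in mutants, solid where the exon length is a multiple of 3 and hatched where it is not. The 185 events at 0.9 or more are all blue and mostly hatched, while the 20 higher events under 0.1 are mostly solid. In those ranges the ceiling at 1 and the floor at 0 largely set the direction.

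Over all 518 events, 332 (64.1%) were multiples of 3. This held for 241 of the 404 lower events (59.7%) and 91 of the 114 higher ones (79.8%). The lower events include all 185 with a sibling inclusion of at least 0.9, of which 43.8% were multiples of 3. The 2 shares therefore do not separate direction from sibling inclusion. Lower events that were not multiples of 3 had a median difference of -0.248 and a median sibling inclusion of 0.957, against -0.208 and 0.792 for the multiples of 3. With at least 20 reads in every library, 130 of 213 lower events and 35 of 40 higher events were multiples of 3. Among the deposited skipped exons of up to 60 bp, 362 of 446 (81.2%) were multiples of 3. Of those over 120 bp whose reads could be recovered, 235 of 360 (65.3%) were. A sibling inclusion of at least 0.9 was found in 22.6% of the shorter exons, 35.7% of those from 61 to 120 bp and 41.1% of the longer ones. These classes were cut by length, and their shares are given side by side without a test.

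Introns around the members were mostly long. The median intron before the exon was 2181.5 bp and the median intron after it 2598 bp, read from the deposited exon borders. An intron of at most 150 bp lay before 54 exons, 49 of them lower in mutants (90.7%, against 78.0% of the members). Such an intron lay after 30 exons, 25 of them lower (83.3%). The 54 had a median difference of -0.257 and a median sibling inclusion of 0.939, against -0.176 and 0.780 over all members. Exons kept that often have little room to rise, and a link with intron length was not tested. Of the named exons, *rwdd2b* followed an intron of 73 bp, and *syngap1a* and *tmed8* each followed one of 78 bp. Those of *kat5b* and *efna5a* followed introns of 146 and 140 bp. The opposite extreme was *raly*, with introns of 14721 and 129666 bp. Some members recurred among other event types. As one of a pair of mutually exclusive exons there were 41 (7.9%, against 8.46% of all deposited skipped exon events with reads). At an alternative 3' splice site there were 4, and at an alternative 5' splice site 0. Members lay on 25 chromosomes. On chromosome 5, which carries *sart3*, there were 30, and 12 of them lay within 10 Mb of the gene, where alleles linked to the mutation travel with it. Of these 12, 6 were lower in mutants, among them *add2*, and the part of linked sequence differences was not tested.

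The level of the host genes is a separate readout of the same libraries. It was compared with edgeR's quasi-likelihood test over all 24809 genes with enough counts, with Benjamini-Hochberg adjustment. Of the 468 host genes 459 were tested, and 83 were called higher and 78 lower in mutants at an adjusted p under 0.05. Over all genes tested, 13.6% were called higher and 14.3% lower, and nothing is read from the difference, since the events were chosen on the same contrast. The 78 lower calls became 51 without mutant replicate 1 and 51 without mutant replicate 2. Host genes had FPKM from 0.0264 to 207, with a median of 7.08.

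The calls were also counted by direction and length of the exon, beside 13.6% higher and 14.3% lower over all genes tested. Genes with a lower event that was not a multiple of 3 numbered 146 among those tested, of which 19 were called higher (13.0%) and 35 lower (24.0%). Genes with a lower event that was a multiple of 3 numbered 227, of which 49 were called higher (21.6%) and 32 lower (14.1%). Of 82 genes with a higher event that was a multiple of 3, 15 were called higher (18.3%) and 6 lower (7.3%). Of 20 genes with a higher event that was not, 5 were called higher (25%) and 6 lower (30%). A gene can appear in more than 1 of these groups, and the differences between them were not tested.

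**Figure D4:**
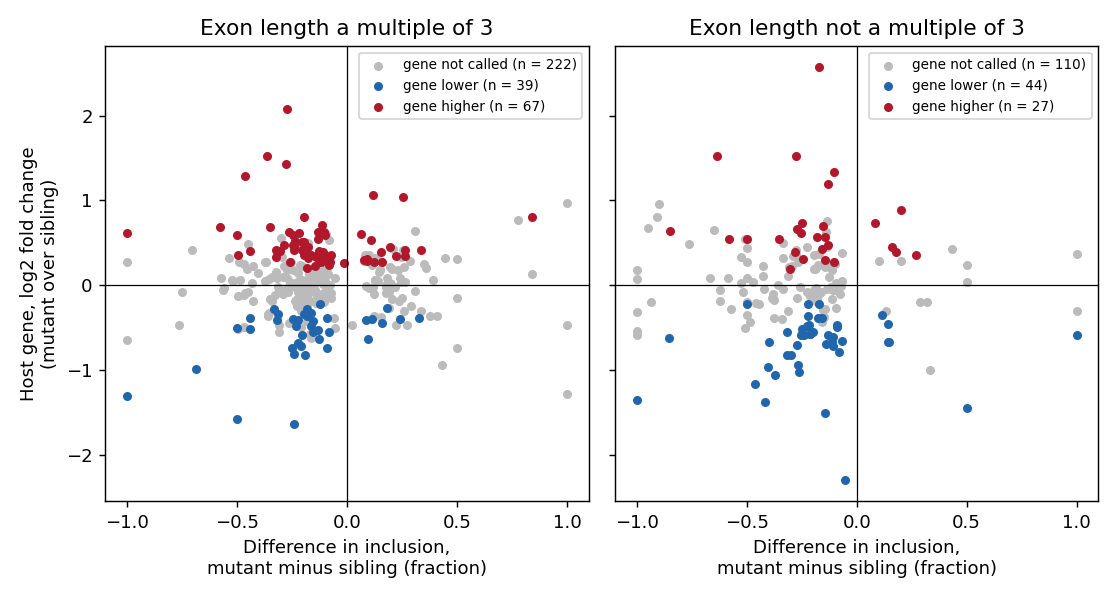
Difference in inclusion (mutant minus sibling, fraction, horizontal axis) and log2 fold change of the host gene (mutant over sibling, vertical axis) for each event whose gene was tested, with multiples of 3 on the left and other lengths on the right. Red and blue mark genes called higher and lower by edgeR and grey those not called. Calls in both directions occur on both sides of 0 in inclusion, and the highest point on the right is *rbl2* at 2.58.

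Of the host genes of the 33 named exons, 3 were called lower, those of *rbm5*, *mdm4* and *cdc14b*, and 7 were called higher. Over all genes tested, 14.3% were called lower and 13.6% higher. The named exons were largely picked by their values in these same libraries, so nothing is read from the counts. The level of *rbm5* was 193 ± 3.1 CPM (counts scaled to library size; SD, n = 3) in siblings and 92.7 ± 1.41 CPM in mutants, a log2 fold change of -1.05 (standard error 0.06, edgeR adjusted p = 5.7e-06). The level of *mdm4* was 97.8, 84.9 and 88.3 CPM in siblings against 59.8, 52.4 and 63.8 CPM in mutants, a log2 fold change of -0.62 (standard error 0.09, edgeR adjusted p = 0.0015). For *cdc14b* it was -0.40 (edgeR adjusted p = 0.0047). The exons of these 3 genes were all kept less often in mutants, and that of *cdc14b* is a multiple of 3 while those of *rbm5* and *mdm4* are not. Of the 7 called higher, *tmed8* (log2 fold change 0.61, edgeR adjusted p = 0.0022), *mark3a* (0.20 and 0.046, in the same order), *ptenb* (0.35 and 0.010), *map4k3a* (0.33 and 0.041) and *tbc1d5* (0.27 and 0.026) also had lower inclusion, and the exons of *tmed8* and *mark3a* are not multiples of 3. The other two, *ube2d3* (0.40 and 0.0070) and si:ch211-242b18.1 (0.36 and 0.0057), had higher inclusion. The call of *map4k3a* was lost without any 1 of the 6 libraries (edgeR adjusted p from 0.051 to 0.11), that of *mark3a* without any 1 but sibling replicate 1 (0.082 to 0.15), and that of *tbc1d5* without sibling replicate 2 or 3 or mutant replicate 1 or 3 (0.058 to 0.11). *kdm6bb*, *kat5b* (ENSDARG00000045951), *add2*, *raly* and *scara3*, among the largest falls in inclusion, were not called in expression, with log2 fold changes from -0.19 to 0.48. The value of 0.48 is that of *kdm6bb*, which was called without sibling replicate 1 (log2 fold change 0.24, edgeR adjusted p = 0.021) and by DESeq2 (adjusted p = 0.036).

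The largest rises in level among host genes were those of *rbl2*, *hsf1* and *ccnt2a*. *rbl2*, a relative of the retinoblastoma protein that restrains cell division, had 25.8, 33.8 and 33.6 CPM in siblings and 185, 186 and 186 CPM in mutants, a log2 fold change of 2.58 (edgeR adjusted p = 1.4e-06). Its 103-bp exon, after an intron of 82 bp, was skipped by none of 118 sibling reads, which allows a skipping share of up to 2.54%, and was kept at 0.819, 0.832 and 0.834 in mutants. *hsf1*, the heat shock transcription factor, went from 25.2 ± 2.59 to 106 ± 6.52 CPM (SD, n = 3; log2 fold change 2.08, edgeR adjusted p = 2.6e-06), while its 78-bp exon went from 0.532 ± 0.057 to 0.260 ± 0.021 (SD, n = 3). For *ccnt2a* the log2 fold change was 1.52 (edgeR adjusted p = 1.4e-06). These genes were far more abundant in mutants while their exons were skipped more often, and mutant reads outnumbered sibling reads at the exon, 716 to 118 for *rbl2*.

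The largest falls in level were those of *ros1*, FO904901.1 and zgc:56622, with log2 fold changes of -2.30, -1.63 and -1.58 (edgeR adjusted p = 0.00073, 0.00074 and 0.014). *ros1* encodes a receptor tyrosine kinase. Its 65-bp exon had a library with 1 read and mean inclusion of 0.718 in siblings and 0.667 in mutants. The mutant values were 1, 1 and 0, so the size and direction of the difference are unreliable at this depth. The event of zgc:56622 rested on 7 reads in all, and its call in level was lost without mutant replicate 2 (adjusted p = 0.058, edgeR). In FO904901.1 the 114-bp exon had means of 0.954 and 0.714, with at least 12 reads in each library.

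The libraries held 16008788 to 18310233 counts on genes. Counts of *sart3* itself numbered 1178, 1218 and 1246 in siblings against 923, 772 and 825 in mutants (log2 fold change -0.44, edgeR adjusted p = 0.0023). A stop codon need not lower the count, so this level does not check the labels. Tissue markers differed between the groups. All 3 lens, all 3 tested exocrine pancreas and all 3 intestine markers were called lower, as were 4 of 5 retina markers, whose summed level was 3776 to 4807 CPM in siblings and 1315 to 1511 CPM in mutants. The exocrine pancreas markers summed to 2118 to 2138 CPM in siblings and 46.1 to 58.7 CPM in mutants, where 1 of them was at 0. Of 6 neuron markers 3 were called lower, with summed levels of 1959 to 2149 CPM in siblings and 1737 to 1840 CPM in mutants. Of 4 cycling cell markers 3 were called lower and 1 higher (488 to 545 CPM in siblings, 329 to 362 CPM in mutants), 2 of 4 tested markers of blood stem cells and lymphoid cells were called lower, and so was 1 of 3 liver markers. Neither heart marker was called, nor was the only erythroid marker tested, 1 of 3 listed. The 2 erythroid markers found summed to 79.0 to 130 CPM in siblings and 65.3 to 257 CPM in mutants. Over all genes tested, 13.6% were called higher and 14.3% lower. Of 5 skeletal muscle markers tested, 4 were called higher and 1 lower. No library lacked the neuron or muscle markers. The part of such shifts in the inclusion of neuronal, muscle and cell cycle exons was not tested.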

How the data were processed

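Whole embryos at 4 dpf were sequenced in 6 libraries, 3 of *sart3* mutants and 3 of WT siblings. The authors deposited raw read counts per gene and FPKM for each library. The submitters' processing notes name HISAT2 2.0.5, featureCounts 1.5.0-p3 and GRCz11. For splicing the authors ran rMATS (version not given in the sources used here) and deposited significant events only, with inclusion and skipping reads, inclusion levels (a fraction, used to check the reads), and rMATS p-values, FDR and differences. Those last were not used. The first group of the table was taken as the mutants, as in the comparison's name (mutant against control). Where the separators between packed reads were missing (21 cells, 15 events), the split that matched the deposited inclusion levels within 0.00051 was used. No such split was found for 3 of the 1327 events, none of them members, and 1 member had such a cell.

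Inclusion was the inclusion reads over their effective length (149 plus the exon length), as a share of both forms (149 for skipping). Such reads cover the exon or its junctions. The table selects events, so no test of inclusion was run. Exon borders come from the deposited tables, starts counted from 1, and introns before and after are in the direction of transcription. No genome of this build was used, so no sequence is shown.

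Counts were filtered with filterByExpr, scaled by TMM and tested with edgeR 4.0.16 (R 4.3.3) at an adjusted p under 0.05. The script was tested on simulated data. Levels per library are CPM. DESeq2 1.42.0, other scalings and filters, a replicate block, left-out libraries, read limits of 10 and 20, undivided reads and summed reads were tried as alternatives. All libraries of a group differed by more than sampling noise (chi-square per degree of freedom 4.47 to 13.6).

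The members and gene lists were chosen with earlier results of these data known. Lists were matched by the start of the symbol, and genes of another role were then removed. Named exons were that of *mdm4*, the 8 largest falls and 8 largest rises with at least 20 reads in every library and no overlap, up to 2 falls and 2 rises of each list with 20 reads, and the best covered exon at each length limit. Named host genes were theirs and the 3 largest rises and falls in level. Other genes named were chosen after their values were seen.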

Additional observations from a re-analysis of the deposited data

How the results depend on the processing

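A limit of 10 reads in every library left 265 lower and 53 higher events with a median difference of -0.155, and a limit of 20 reads left 213 and 40 with -0.145. Without division by the effective lengths the median difference was -0.151 and the directions were the same in number, 404 and 114. Counting distinct exons gave 396 and 111, and summing the reads of a group gave 403 and 115. Leaving out each value in turn gave 388 to 404 lower and 106 to 116 higher events and medians from -0.176 to -0.159. Of the 33 named exons, 3 moved by more than the spread without division by lengths (*kdm6bb* to -0.363, *rbm5* to -0.301 and *mapta* to 0.182). None changed direction under any alternative. In 30 of them the groups did not overlap, so leaving out a value could not have reversed their direction. An alternative with an FDR under 0.01 in the deposited table was not run, since that column is the authors' own comparison.

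Host genes called higher numbered 76 to 85 and lower 60 to 78 over other scalings, filters, DESeq2 and the replicate block. The replicate block gave 76 and 60. Deviations of libraries with the same replicate number had correlations of 0.05, 0.02 and -0.10, against -0.09 to 0.07 for other pairs. So few values cannot tell whether libraries were paired. Leaving out each library gave 57 to 94 higher and 51 to 77 lower, with 51 lower without mutant replicate 1 and without mutant replicate 2. A log2 fold change of at least 1 left 9 and 11. No named host gene changed direction. The calls of *map4k3a*, *mark3a* and *tbc1d5* were lost in several settings and that of zgc:56622 without mutant replicate 2 (adjusted p = 0.058, edgeR), and those of *kdm6bb*, *mapta*, *sash1a*, *dnm1l*, *epb41a*, *phf21aa*, *puf60a* and *utrn* were gained in at least 1. Depth limits the rest, since a library with under 10 reads occurred in 200 of the 518 events.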
